A study of Mus musculus with 10 samples.

Results

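Mouse bone marrow stromal cells that had been primed towards bone and then made to lose Rb1 and Trp53 were compared with wild-type marrow stromal cells. The comparison rests on 4 of the 10 arrays of the series, 2 per group, chosen by their labels, and is described here over 21501 autosomal genes of 22594 genes tested. Genes of the cell cycle, p53 targets, bone formation and cytokines were set aside as separate lists, so that the account covers the rest of the genome.

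All cultures were mesenchymal stem cells of the FVB strain, kept in the same growth medium and collected in duplicate, as independent cultures, during exponential growth. The wild-type cells are labelled WT and non-tumorigenic. The primed null cells came from marrow of RbloxP/loxP p53loxP/loxP animals, spent 10 days in osteogenic medium, and were then infected with Ad-CMV-Cre, an adenovirus that makes Cre recombinase from the CMV promoter. They are labelled Rb p53 double-knockout and tumorigenic, whereas their source label names Rb-/-p53-/- mice. The remaining arrays hold cells from fat (ASC), wild type and primed null, and a tumor line whose title names the primed null marrow cells. The series asked whether the differentiation stage at which a cell loses Rb and p53 shapes the sarcoma that follows. No array holds unprimed null cells or primed wild-type cells, and whether the wild-type cells received the virus is not stated. Gene loss, Cre virus, priming, donor and slide position therefore cannot be told apart, and neither can fewer cells of a type and less RNA per cell.

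Rb1 encodes the retinoblastoma protein, which holds E2F transcription factors inactive until a cell commits to divide, and Trp53 encodes p53, which arrests or kills stressed cells. Both also act in differentiation, where Rb works with lineage factors of bone and fat. Marrow stromal cells make the bone matrix, the fat cells and the niche signals of the marrow, and cells that lose both genes are a known origin of bone and soft tissue sarcomas.

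Levels are given as the log2 of the probe's signal over the array's 75th percentile, so that 0 is a signal at that percentile. A change is the null mean minus the wild-type mean (log2, ± SE), and the levels of different probes are not compared. Changes were tested with limma over all genes, and rose, fell and changed are used for adjusted p under 0.05. Within each list the largest rise and the largest fall measured in both groups were named by rule. So were the largest changes among genes outside the lists set aside. The other genes were chosen after their values were seen. The 4 marrow arrays had 53.3% to 58.4% of spots well above background and no saturated spot, and duplicates correlated at 0.996 over genes, against 0.979 to 0.981 between the groups. The wild-type arrays lay in one line of slide positions and the null arrays in the other. The groups also differed in sex-linked transcripts. Xist stood at 2.05 and 2.20 in wild-type cells and at -4.20 and -4.55 in null cells, a fall of 6.50 ± 0.19, while the Y-linked Ddx3y stood at 1.66 and 1.64 against 2.00 and 1.89. The labels give neither the sex nor the number of donors, and the part of donor differences in the results below was not tested.

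The labelled cell type was checked with marker genes. Of 8 stromal markers, Nt5e and Pdgfrb rose, Pdgfra, Ly6a and Thy1 fell, and Eng, Cd44 and Itgb1 did not pass the test. All 8 were well above background on every marrow array, and their summed signal was 142 and 129.6 times the 75th percentile in wild-type cells and 99.1 and 96.8 in null cells. Nt5e (CD73, the ectoenzyme that makes adenosine) stood at -2.52 and -2.12 in wild-type cells and at 1.16 and 1.24 in null cells, 11.5-fold higher. Thy1 (CD90) fell from 2.79 and 2.59 to 1.09 and 1.15. Ly6a (Sca-1) fell from 6.09 and 5.87 to 4.66 and 4.57 (1.37 ± 0.09), and Pdgfra fell by 0.79 ± 0.07. Ly6a was the largest term of the summed signal on every marrow array, and the sum fell mainly through this gene. In none of these 4 genes did the groups overlap, which was also so for 71.3% of all autosomal genes.

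Both targeted genes were lower in the null cells. Rb1 (chromosome 14, mm9 probe position 73595408 to 73595467) stood at 1.90 and 1.92 in wild-type and at 0.65 and 0.54 in null cells, a fall of 1.31 ± 0.05 (adjusted p = 1.4e-05) that left 40.2% of the wild-type signal. Trp53 (chromosome 11, 69404204 to 69404263) stood at 0.83 and 0.71 against -0.89 and -1.11, a fall of 1.77 ± 0.20 (adjusted p = 0.000715) that left 29.3%. In fat cells the same contrasts were -3.25 for Rb1 and -5.87 for Trp53, and the difference between the tissues was 1.93 ± 0.07 and 4.10 ± 0.28 (adjusted p = 2.92e-05 and 0.000173). The tumor line stood at -1.98 and -1.97 for Rb1 and at -7.56 and -7.59 for Trp53, the latter not well above background, so both probes read lower there than in the null marrow cells. The marrow cells are called null by their label, and whether these probes lie in the excised exons is not known here.

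Of the 21501 autosomal genes, 8502 changed (39.5%), of which 4198 were higher (19.5%) and 4304 lower (20%) in null cells. The change was at least 2-fold for 1771 genes (8.24%), 710 up and 1061 down, and with a normexp background correction for 841. Both null arrays lay outside the range of both wild-type arrays for 15334 genes (71.3%), and 487 genes (2.27%) were well above background in only 1 group, so that their size is known only as a bound. The median change over all autosomal genes was 0.01. Gene lists are read below against these shares.

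**Figure D1:**
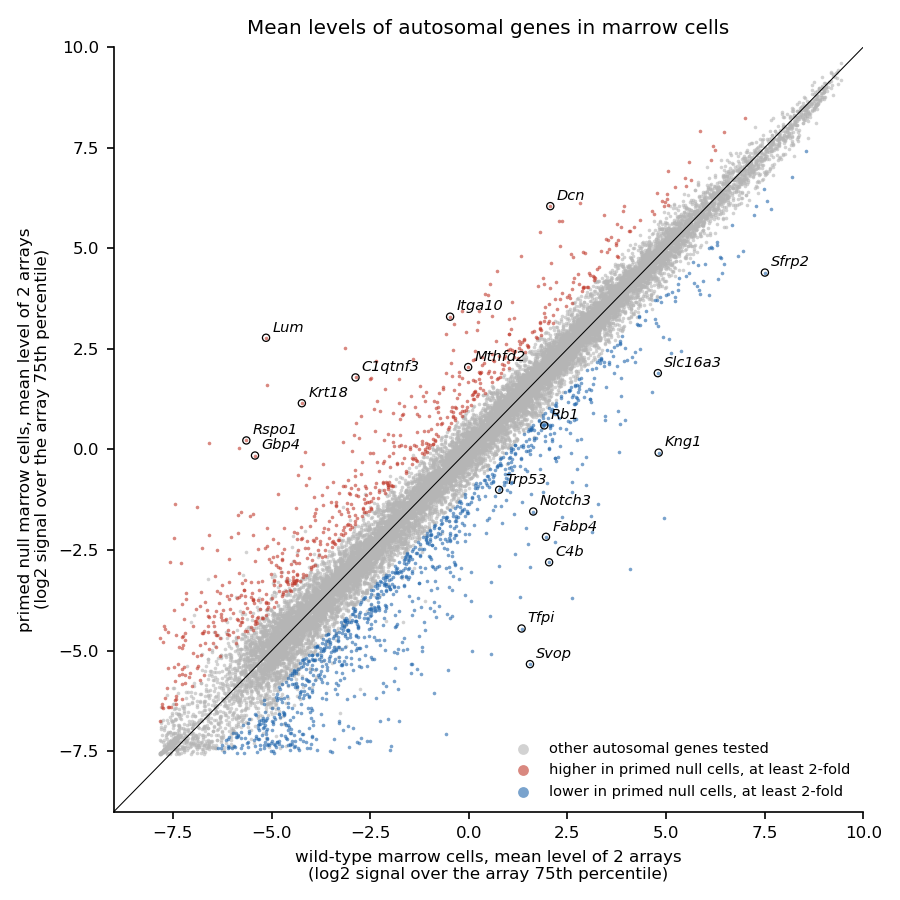
Mean level of each autosomal gene in wild-type (horizontal axis) and primed null marrow cells (vertical axis), as log2 signal over the array 75th percentile, means of 2 arrays, with the diagonal of equal levels. Red and blue points are the 710 genes at least 2-fold higher and the 1061 at least 2-fold lower with adjusted p under 0.05, and circled points are genes named in the text.

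The largest rises among genes measured in both groups, outside the lists set aside, joined matrix, signalling and cytoskeletal genes. Lum (lumican, a collagen-binding proteoglycan, chromosome 10, 97035210 to 97035269) led them at -5.34 and -4.94 in wild-type and 2.79 and 2.76 in null cells, a change of 7.92 ± 0.13. C1qtnf3 (an adiponectin-like secreted protein) rose from -3.04 and -2.70 to 1.74 and 1.84, by 4.66 ± 0.23. Fhod3 (a formin that builds sarcomeric actin) rose from -2.60 and -2.12 to 2.14 and 2.25. F13a1 (the clotting factor XIII A chain, which cross-links fibrin and matrix) rose by 4.27 ± 0.39 and Macc1 (a regulator of the Met receptor) by 3.83 ± 0.08. The simple keratin Krt18, Chn2 (a Rac GTPase-activating protein) and Col26a1 rose by 5.38 ± 0.29, 4.24 ± 0.18 and 3.89 ± 0.34. Fbp1 (fructose-bisphosphatase, a gluconeogenic enzyme) rose by 3.90 ± 0.69. For Lum, Chn2, Fbp1 and Col26a1, 1 wild-type array was not well above background, so the size depends on how dim signals are read.

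The largest falls, ranked in the same way, were led by Svop (a synaptic vesicle protein), at 1.50 and 1.60 in wild-type and -4.98 and -5.69 in null cells. Tfpi (the inhibitor of the tissue factor pathway of clotting) fell from 1.40 and 1.27 to -4.46 and -4.43, a change of -5.79 ± 0.06 (adjusted p = 3.98e-07), with 3 probes between -6.14 and -4.21. Epha1 (an ephrin receptor) fell from 3.10 and 2.85 to -0.94 and -0.82. Ndufa4l2 (a mitochondrial protein known as a hypoxia target) fell from 3.77 and 3.82 to -0.01 and -0.10. Shisal1 fell by 4.77 ± 0.16, with a second probe at -2.34. Ptprz1 (a receptor phosphatase) fell by 5.07 ± 0.13 at its brightest probe, but its 3 probes ranged from -5.12 to 0.35 and so did not move together. Svop and Ptprz1 were well above background on only 1 null array. Of genes dim in all arrays of 1 group, Galnt3 (which starts O-glycan chains) was at least 14.3-fold higher and Defa38 (a defensin) at least 19.3-fold higher, the latter with null arrays at -0.38 and -2.34. Saa3 (serum amyloid A), Etnk2 (ethanolamine kinase) and Selp (P-selectin) were at least 25.6-fold, 25.1-fold and 15.1-fold lower, with a second Etnk2 probe at -2.40.

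**Figure D2:**
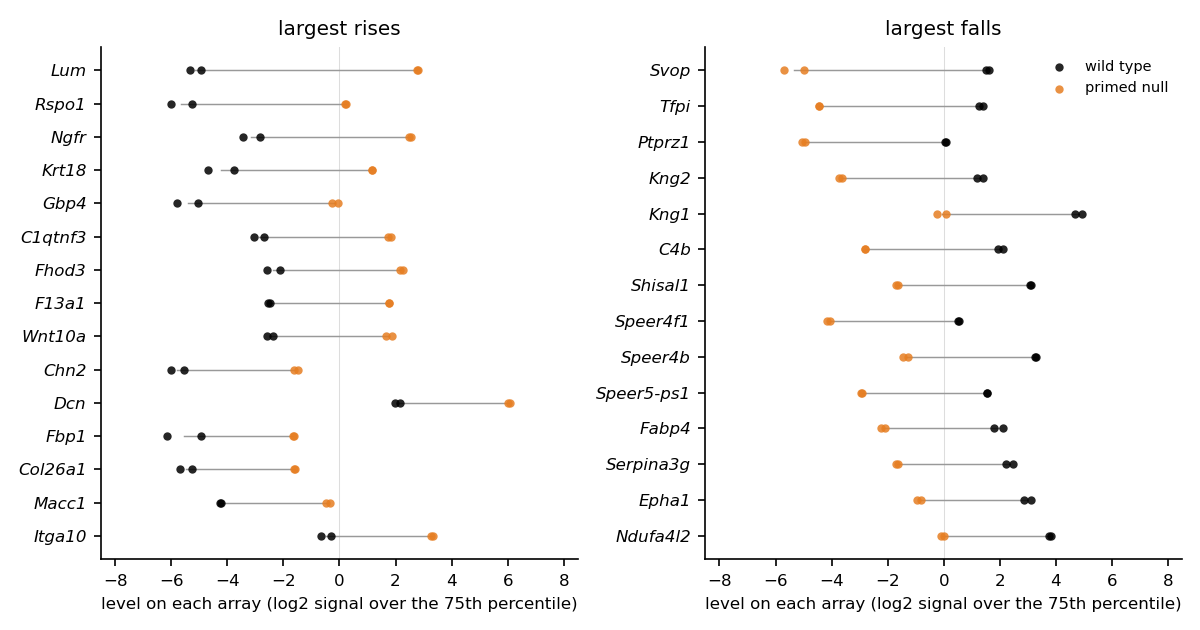
Level on each array (horizontal axis, log2 signal over the array 75th percentile) for the 15 autosomal genes with the largest rises and 14 of those with the largest falls. Genes of the lists set aside were left out of this ranking. Wild-type arrays are in black, primed null arrays in orange, and a line joins the group means. In each of the 29 genes both arrays of one group lie above both of the other, as the choice of the genes requires.

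The lists differed in the shares that rose and fell. Most cholesterol and amino acid genes rose, most glycolysis genes fell, and innate immune sensors fell more often than they rose. These counts are descriptions of the lists, with no test of a list against other genes.

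**Figure D3:**
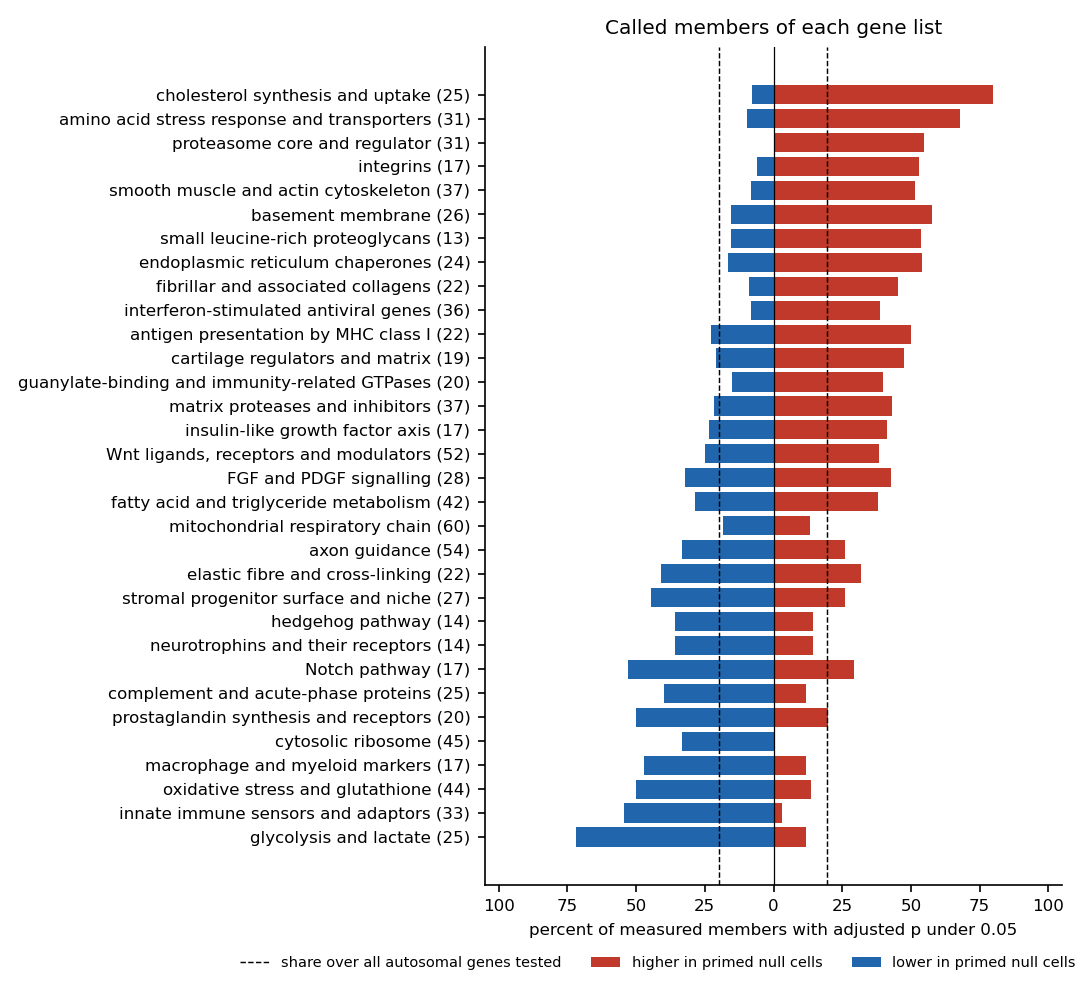
Percent of the measured members of 32 gene lists that rose (red, to the right) or fell (blue, to the left) in primed null marrow cells, with the number measured in parentheses. Dashed lines mark the shares over all autosomal genes, 19.5% higher and 20% lower.

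Cholesterol genes rose together. Cells make cholesterol from acetyl units through mevalonate, farnesyl diphosphate, squalene and lanosterol, under the factor SREBP2 and its sterol-sensing escort Scap. Of 25 measured genes, 20 rose and 2 fell, with a median change of 0.81. All 16 measured enzymes from mevalonate to sterols rose, by 0.40 to 1.33. Dhcr7, the last enzyme of the pathway, stood at 1.44 and 1.34 in wild-type and 2.74 and 2.70 in null cells, 2.51-fold higher (1.33 ± 0.07, adjusted p = 3.14e-05). Mvd and Fdps, which make and join the isoprene units, rose from 2.93 and 2.85 to 4.05 and 4.04, and from 5.69 and 5.60 to 6.69 and 6.72. Abca1, which exports cholesterol, rose by 1.14 ± 0.14. Scap fell by 0.34 ± 0.07. Insig1, which retains it, was at -0.18 ± 0.05 (adjusted p = 0.0351), a call lost with any 1 array left out (adjusted p = 0.0637 to 0.156). Of 16 members with a RefSeq promoter window (GRCm38.p6, 250 bases before the start), 14 held CCAAT on either strand, against 33.8% of 32851 windows and 37.5% of genes.

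Genes of fat metabolism moved both ways. In the list of fatty acid and triglyceride metabolism, 16 of 42 genes rose and 12 fell. Among the risers were Fasn, the fatty acid synthase, from -0.62 and -0.73 to 0.61 and 0.71, and Acsl3, an acyl-CoA synthetase, by 1.42 ± 0.11. Fabp4, the fatty acid carrier of fat cells and macrophages, fell from 2.11 and 1.80 to -2.09 and -2.25, 17.5-fold. Of 13 adipocyte regulators 2 rose and 6 fell, with a median of -0.33. Cebpd, an early factor of fat differentiation and of the acute-phase response, fell from 6.16 and 6.01 to 3.85 and 3.82, whereas Klf4 rose by 1.07 ± 0.06. Pparg, the master factor of fat cells, fell by only 0.29 ± 0.07 (adjusted p = 0.017), a call that was lost without wild-type array 2 or without either null array (adjusted p = 0.0634 to 0.0851).

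Amino acid genes also rose. When amino acids run short or proteins misfold, the kinases of the integrated stress response favour translation of Atf4, which turns on serine, asparagine and transporter genes through CARE elements. Of 31 measured genes 21 rose, 14 of them at least 2-fold, and 3 fell, with a median of 0.76. Of 7 serine and one-carbon enzymes 6 rose, with a median of 1.12. Promoters of 4 of the risers are printed, 5′ to 3′ on the gene's strand (RefSeq, GRCm38.p6), because each holds an 8-base form of that element, TGATGNAA or its reverse complement, set in capitals.
Asns, chr6:7693210-7693268 (minus strand): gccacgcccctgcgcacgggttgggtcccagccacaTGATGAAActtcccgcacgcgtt
Atf3, chr1:191183400-191183479 (minus strand): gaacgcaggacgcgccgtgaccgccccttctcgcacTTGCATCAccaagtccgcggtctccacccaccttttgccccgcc
Chac1, chr2:119351013-119351092 (plus strand): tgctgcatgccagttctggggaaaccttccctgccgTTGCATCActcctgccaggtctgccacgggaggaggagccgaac
Nupr1, chr7:126625537-126625616 (minus strand): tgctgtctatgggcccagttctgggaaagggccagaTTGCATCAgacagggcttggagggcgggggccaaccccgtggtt

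Of the 25 members with a promoter window 6 held TGATGNAA on either strand, the 4 above with Slc7a11 and Vldlr, and all 6 were among the 18 risers with a window, against 3.45% of all windows and 3.91% of genes. A match describes these letters only. Atf3, a stress-induced repressor, rose from -2.07 and -1.76 to 0.36 and 0.34, 4.79-fold. Chac1, which degrades glutathione, rose from 2.15 and 1.94 to 4.14 and 3.87. Asns, the asparagine synthetase, rose from 5.10 on both arrays to 6.07 and 6.01, and the stress cofactor Nupr1 by 1.29 ± 0.07. The mitochondrial one-carbon enzymes Mthfd2 and Aldh1l2 rose the most among enzymes. Mthfd2 stood at -0.03 and 0.00 against 2.01 and 2.08 (2.06 ± 0.06), and Aldh1l2 rose by 2.09 ± 0.06. Phgdh, which opens serine synthesis, rose by 1.36 ± 0.06, the transporter Slc7a5 by 1.84 ± 0.08, and Trib3 by 1.95 ± 0.07. The probe of Atf4 itself moved less, from 7.13 and 7.08 to 7.59 and 7.60. Sesn2, which p53 also induces, fell by 0.93 ± 0.08, and the glutamate transporter Slc1a3 by 1.56 ± 0.37 (adjusted p = 0.0163, and 0.0612 to 0.0747 with any 1 of the 4 arrays left out).

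Glycolysis moved the other way. Glucose is split to pyruvate by this pathway and leaves the cell as lactate through monocarboxylate carriers when oxygen is scarce. Of 25 measured genes 18 fell and 3 rose, with a median of -0.68. Among 17 glycolytic enzymes 12 fell and 1 rose. Slc16a3, the lactate exporter MCT4, fell from 4.90 and 4.68 to 1.79 and 2.00, 7.43-fold. Aldoc (aldolase C) fell from 4.26 and 4.17 to 2.18 and 2.14, and Ldhb from 6.98 and 6.92 to 4.99 and 4.87. Their relatives Ldha and Aldoa fell by less, at -0.68 ± 0.08 and -0.68 ± 0.07, and the phosphofructokinase Pfkl fell by 1.69 ± 0.09. Among the enzymes Eno3, the muscle enolase, was the one that rose, from 3.89 and 3.99 to 6.04 and 6.06.

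The respiratory chain changed little. Of 60 subunits 8 rose and 11 fell, with a median of -0.03 and no change of 2-fold, and 31.7% were called against 39.5% of all autosomal genes. Ndufab1 had the largest rise, 0.46 ± 0.06, and Ndufa3 the largest fall, 0.45 ± 0.06, with its 3 probes between -0.50 and 0.14. Both counts were lower with any 1 array left out, which leaves 1 array in a group, and the cause was not tested. Genes against oxidants fell more often than they rose, 22 against 6 of 44, with a median of -0.21. Mgst2, a microsomal glutathione transferase, fell from 1.91 and 1.84 to -1.12 and -0.97. The metallothionein Mt2 fell by 1.00 ± 0.05, and Gsr, which regenerates glutathione, rose by 0.96 ± 0.06.

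Matrix genes rose in several families. The small leucine-rich proteoglycans bind collagen fibrils and set their thickness, and 7 of 13 rose while 2 fell. Dcn (decorin, chromosome 10, 96980233 to 96980292) stood at 1.98 and 2.15 in wild-type and 6.07 and 6.03 in null cells, 15.8-fold higher. Aspn (asporin, which also binds TGF-beta) rose from 3.70 and 3.87 to 5.22 and 5.17, and Podn (podocan) fell by 1.00 ± 0.12. Of 22 fibrillar and associated collagens 10 rose and 2 fell, and Col1a1 and Col1a2, the main bone collagen chains, did not pass the test (0.08 and 0.12). Col11a1, which seeds fibrils in cartilage, rose from 0.97 and 1.05 to 3.23 and 3.27. Col24a1, a fibrillar collagen of developing bone, rose by 2.25 ± 0.26, and Col8a1, a network-forming collagen, by 1.86 ± 0.10. Col10a1, the collagen of hypertrophic cartilage, was at -1.27 ± 0.31 (adjusted p = 0.0191), a call lost without wild-type array 1 (adjusted p = 0.101) or null array 2 (adjusted p = 0.07), where 1 of 22 collagens was left falling.

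Basement membrane is the sheet of type IV collagen and laminin under epithelium and around muscle and vessels. Of 26 measured genes 15 rose, 8 at least 2-fold, and 4 fell, with a median of 0.64. The type IV collagen chains Col4a1 and Col4a2 start 21 bases apart on opposite strands of chromosome 8, at 11312826 and 11312805 (RefSeq, GRCm38.p6). Col4a1 stood at 2.89 and 2.98 in wild-type and 4.84 and 4.91 in null cells, and Col4a2 at 2.65 on both arrays against 4.15 and 4.16, so both members of the pair rose, 3.82-fold and 2.84-fold. Of 10 laminin chains 7 rose and 1 fell. Lama2, the laminin chain of muscle, rose by 2.44 ± 0.16 and Lamb3 by 2.75 ± 0.38. Smoc2, a secreted calcium-binding matrix protein, rose from 1.84 and 1.89 to 4.23 and 4.31 (2.40 ± 0.05), whereas its relative Smoc1 fell from 3.75 and 3.59 to 1.88 and 1.94. Col18a1, the source of endostatin, fell by 0.90 ± 0.04.

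Integrins bind cells to these matrices as pairs of an alpha and a beta chain. Of 17 measured 9 rose and 1 fell, with a median of 0.42. Itga10, a collagen receptor of cartilage cells, rose from -0.65 and -0.30 to 3.26 and 3.33 (3.77 ± 0.12, adjusted p = 8.35e-06), and its second probe gave 3.78. Itga8 rose from -2.43 and -2.09 to 0.94 and 0.96, and the laminin receptor chain Itga7 from 0.22 and 0.28 to 1.92 and 1.94. Itga9 was the one that fell, by 1.01 ± 0.14. Their common partner Itgb1 did not pass the test (0.22).

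Elastic fibre genes fell and rose in similar numbers, 9 and 7 of 22. Lox, the enzyme that cross-links collagen and elastin, fell from 6.01 and 5.85 to 4.24 and 4.13, and Ltbp2 from 7.73 and 7.60 to 5.99 and 5.96. Mfap4 rose by 2.41 ± 0.12. Of 37 matrix proteases and inhibitors 16 rose and 8 fell, including Mmp13, the collagenase of cartilage and bone, which rose from 3.48 and 3.62 to 5.04 and 4.94. The protease inhibitor Serpine2 fell by 1.61 ± 0.10. Of 19 cartilage genes 9 rose and 4 fell, with a median of 0.66. Hapln1, which links hyaluronan to aggrecan, rose from -4.08 and -4.03 to -0.75 and -0.67, 10.2-fold, and Matn3 (matrilin) was at least 9.94-fold higher. Prg4, the joint lubricant, fell by 2.48 ± 0.35. Ctsk, the cathepsin that digests bone collagen, rose by 0.99 ± 0.04, while Ctsf fell by 0.97 ± 0.06. In the lysosome list, 12 of 39 genes rose and 9 fell, none by 2-fold.

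Machinery for making and degrading protein showed small shifts. Of 31 proteasome subunits 17 rose and 0 fell in the limma test (21 and 1 at an unadjusted p under 0.05), with a median of 0.19 and the largest rise in Psmd7 (0.39 ± 0.04). Without wild-type array 2 or null array 1, only 6 of the 31 rose, and without null array 2, or with the marrow arrays fitted alone, 10. Of 45 cytosolic ribosomal proteins 0 rose and 15 fell (0 and 19 at an unadjusted p under 0.05), with a median of -0.18. The fallers numbered 6, 9 and 4 without wild-type array 1, null array 1 and null array 2, and 6 with the marrow arrays fitted alone. Rps21 was lowest, at -0.53 ± 0.11 (adjusted p = 0.00893, but 0.0533 without wild-type array 2 and 0.051 without null array 1). Of 24 chaperones of the endoplasmic reticulum 13 rose, led by Herpud1, a part of its degradation complex, from 2.90 and 2.93 to 3.69 and 3.66. Another 4 fell, and this number was 0 without wild-type array 1 or null array 2 and 1 without null array 1. With the marrow arrays fitted alone 8 rose and 0 fell. Pdia6, the largest fall, was at -0.31 ± 0.09 (adjusted p = 0.0428), and with other single arrays left out at 0.111 to 0.195. Of 20 cytosolic heat-shock proteins 7 rose and 2 fell, led by Hspa4l (1.27 ± 0.06) and Hspb2 (-1.10 ± 0.09).

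Immune genes split by family. Guanylate-binding proteins are interferon-induced GTPases that attack vacuoles of intracellular microbes, and lie in separate clusters on chromosomes 5 and 3. All 6 measured genes of the chromosome 5 cluster (105.4 to 105.8 Mb, mm9) rose, by 1.17 to 6.74. Of the 5 on chromosome 3 (142.2 to 142.3 Mb) 0 rose in the limma test (0 at an unadjusted p under 0.05) and 2 fell. Gbp8 stood at -6.50 and -6.65 in wild-type and 0.14 and 0.18 in null cells and was at least 55.3-fold higher, and Gbp11 was at least 50.9-fold higher. Gbp4 rose by 5.27 ± 0.22, with 1 wild-type array not well above background, Gbp9 from -2.32 and -2.46 to 0.92 and 1.10, Gbp6 by 2.66 ± 0.21 and Gbp10 by 1.17 ± 0.13. On chromosome 3, Gbp2 fell from 4.30 and 4.12 to 3.41 and 3.45 and Gbp2b by 1.07 ± 0.15, and Gbp3 was at 0.00 ± 0.12. Members of each cluster are close copies, so a probe may read more than one.

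**Figure D4:**
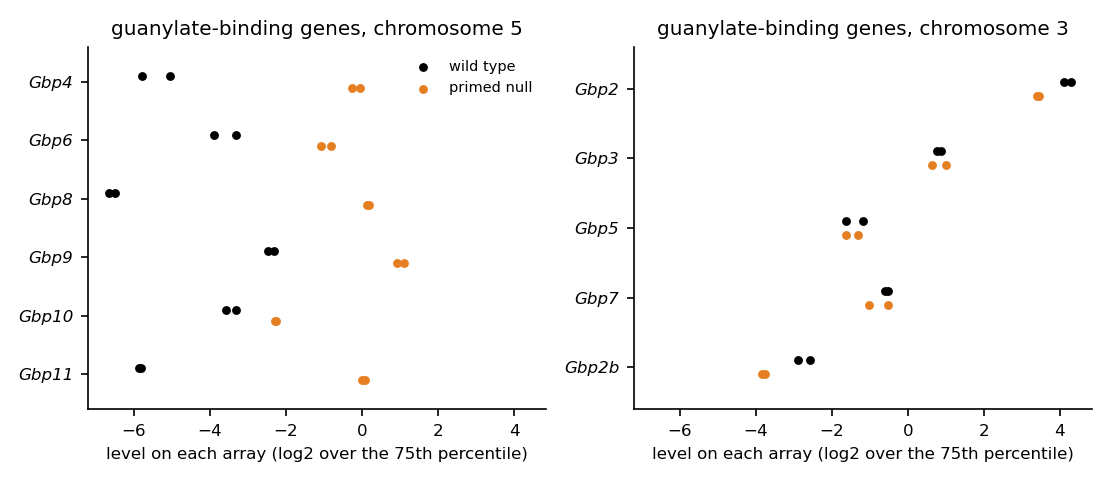
Level on each marrow array (horizontal axis, log2 signal over the array 75th percentile) of the guanylate-binding genes measured in the chromosome 5 cluster (left) and the chromosome 3 cluster (right), with wild-type arrays in black and primed null arrays in orange. All 6 genes on the left are higher in the null cells with no overlap, and none of the 5 on the right is. The groups did not overlap, in either direction, for 71.3% of all autosomal genes.

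Of 36 other interferon-induced genes 14 rose and 3 fell, with a median of 0.36, but 4 rose when the 4 marrow arrays were fitted alone. The median over these 36 genes was 0.32 higher on null array 2 than on null array 1, and without wild-type array 2 the risers numbered 8. Oasl1 was highest at 3.37 ± 0.62, with wild-type arrays at -7.17 and -5.01, of which 1 was not well above background, and its call was lost with the marrow arrays fitted alone (adjusted p = 0.0623). The membrane proteins Ifitm1 and Ifitm3 went the other way, and Ifitm1 fell from 1.29 and 1.32 to -0.33 and -0.49. Of 22 genes of antigen presentation by MHC class I 11 rose, led by H2-K1 (0.72 ± 0.04), a gene with near-identical relatives. Another 5 fell, and this number was 2 without wild-type array 1 and 3 without either null array. The peptide transporter Tap1 was at -0.54 ± 0.12 (adjusted p = 0.0121, and 0.0505 to 0.0701 without wild-type array 1, wild-type array 2 or null array 1).

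Some complement and acute-phase proteins, which mark and dispose of microbes, fell by large amounts. Of 25 measured 10 fell, each at least 2-fold, 3 rose and 12 did not pass the test, with a median of -0.14. C4b stood at 2.13 and 1.94 in wild-type and -2.80 and -2.81 in null cells, 28.6-fold lower, and C3 fell by 6.65 ± 0.10. The haemoglobin scavenger Hp fell from 4.73 and 4.55 to 1.48 and 1.36, and the pentraxin Ptx3 from 5.47 and 5.28 to 2.49 and 2.39. Serping1, which blocks C1, fell by 1.99 ± 0.10, and the protease C1s1 by 1.60 ± 0.05. Lbp, which passes bacterial lipopolysaccharide on towards Tlr4, rose from 1.17 and 1.10 to 2.48 and 2.36.

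Serpins inhibit proteases by a trapping mechanism, and the Serpina3 cluster holds mouse copies of a human acute-phase gene. Of 36 serpins 16 fell, 13 at least 2-fold, and 5 rose. In the Serpina3 cluster of chromosome 12 (105.4 to 105.7 Mb, mm9) 7 of 8 measured genes fell, with all changes between -4.02 and -0.32. Serpina3g fell from 2.48 and 2.23 to -1.69 and -1.65, 16.3-fold. Serpina3f fell from 4.01 and 3.90 to 0.83 and 0.62, Serpina3i by 3.23 ± 0.11 and Serpina3n by 2.62 ± 0.07, and second probes of Serpina3f and Serpina3i gave -4.66 and -5.96. These genes are near-identical copies whose probes may cross-react, and matches in their promoters are not independent of one another. Their promoters are printed (RefSeq, GRCm38.p6, all plus strand) because 3 of 6 Serpina3 windows held TTCNNNGAA (in capitals), the form bound by STAT factors, against 7.02% of all windows and 8.13% of genes, and because they show how alike the copies are.
Serpina3f, chr12:104214387-104214467: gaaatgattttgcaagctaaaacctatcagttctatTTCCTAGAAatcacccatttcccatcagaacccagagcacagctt
Serpina3g, chr12:104236078-104236146: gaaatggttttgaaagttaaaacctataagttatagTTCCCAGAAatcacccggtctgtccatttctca
Serpina3i, chr12:104262984-104263064: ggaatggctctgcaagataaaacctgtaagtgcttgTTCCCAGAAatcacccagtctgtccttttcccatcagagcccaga

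Innate immune sensors and their adaptors fell more often than they rose, 18 against 1 of 33, with a median of -0.31. Fewer fell with any 1 array left out. Among 6 toll-like receptors 3 fell and 1 rose. Tlr2, the sensor of bacterial lipopeptides, fell from 2.96 and 2.99 to 2.14 and 2.10, and Tlr4 rose by 0.37 ± 0.06. Sting1, which relays the cytosolic DNA signal, fell by 0.79 ± 0.07, the inflammatory caspase Casp4 by 1.27 ± 0.07 and Nfkbia, the inhibitor and target of NF-kB, by 0.76 ± 0.05. Nlrp2 stood at -0.72 and -1.04 in wild-type cells and was at least 20.9-fold lower in null cells. Of 25 interleukin receptor genes 11 fell, 8 at least 2-fold, and 5 rose, the latter 3 without wild-type array 2 or null array 1. Il1r1, the signalling receptor of interleukin-1, fell from 1.01 on both arrays to -0.43 and -0.51. Il1rn, its natural antagonist, was at -3.24 ± 0.68 (adjusted p = 0.0105, but 0.0513 without wild-type array 1 and 0.0539 without null array 2), and the adhesion receptor Icam1 was at least 2.49-fold lower.

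Of 20 prostaglandin genes 10 fell and 4 rose, the fallers 5 without wild-type array 1 or null array 2. Ptgis, the prostacyclin synthase, rose from 3.76 on both arrays to 5.59 and 5.60, although its second probe gave 0.61. Its receptor Ptgir fell by 1.27 ± 0.21.

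Wnt genes changed in both directions and by large amounts. Secreted Wnt proteins bind Frizzled and Lrp receptors and stabilise beta-catenin, R-spondins strengthen this signal, and Sfrp and Dkk proteins block it; the pathway drives bone formation. Of 52 measured genes 20 rose, 15 at least 2-fold, and 13 fell, 4 at least 2-fold, with a median of 0.05, and without null array 2 the fallers numbered 8. Of 11 ligands 5 rose and 3 fell. Wnt10a rose from -2.58 and -2.38 to 1.88 and 1.67, Wnt10b from -0.84 and -0.75 to 1.20 and 1.18, and Wnt6 was at least 2.55-fold higher. Of 3 R-spondins Rspo1 rose by 5.86 ± 0.40, with 1 wild-type array not well above background, and the other two fell. Among 10 secreted inhibitors 3 rose and 3 fell. Sfrp2 (chromosome 3, 83577864 to 83577923) fell from 7.53 and 7.48 to 4.42 and 4.37 and Sfrp1 from 5.25 and 4.98 to 2.36 and 2.42. Of 15 receptors 6 rose and 2 fell, led by Fzd9 (1.90 ± 0.19). Of 8 feedback targets 4 rose and 1 fell. Axin2, a widely used readout of beta-catenin, was at least 3.12-fold higher, Apcdd1 rose from 0.13 and 0.16 to 2.43 and 2.46, and Nkd2 by 1.38 ± 0.14.

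The Notch pathway, in which Delta and Jagged ligands on one cell activate receptors on the next, had 9 of 17 genes falling and 5 rising, the risers 3 without wild-type array 1 or null array 2. The receptor Notch3, known from pericytes and smooth muscle, fell from 1.71 and 1.56 to -1.51 and -1.57, 9.02-fold. The ligand Dll1 rose from -4.55 and -4.32 to -2.80 and -2.72. Dlk1, which holds back fat differentiation, fell by 2.42 ± 0.07 at one probe and by more at the other (-3.02).

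Growth factor genes changed both ways. Of 28 FGF and PDGF genes 12 rose and 9 fell. Of 5 FGF receptors 4 rose, led by Fgfr3, from 0.04 and 0.40 to 2.92 and 3.02. Fgf18, a ligand of Fgfr3 in cartilage and bone, rose from -1.42 and -1.54 to 1.39 and 1.27, whereas Fgf7, an epithelial growth factor made by stroma, fell from 6.43 and 6.38 to 4.49 and 4.29. In the insulin-like growth factor axis 7 of 17 genes rose and 4 fell. Of 5 binding proteins 4 rose and 0 fell (5 and 0 at an unadjusted p under 0.05). Igfbp5, which bone matrix stores, rose from 1.58 and 2.05 to 5.40 and 5.42, and Igfbp2 by 1.97 ± 0.14. Pappa, the protease that cleaves binding proteins, fell by 1.42 ± 0.13.

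Neurotrophin genes fell in 5 of 14 and rose in 2. Gdnf, a survival factor of neurons, fell from -0.54 and -0.62 to -2.75 and -3.12, and Ngfr (p75, also CD271 of marrow stroma) rose by 5.67 ± 0.18. Of 54 axon guidance genes 14 rose and 18 fell. Plxnc1, a semaphorin receptor, rose from -1.17 and -1.14 to 1.32 on both arrays. Slit1 fell by 2.67 ± 0.34, with 1 null array not well above background, and Robo3, a Slit receptor, was at least 16.6-fold lower at one probe with the other at -0.25. Of 48 genes of TGF-beta and BMP signalling 14 rose and 15 fell. Bmp2, a bone-inducing ligand, rose by 6.72 ± 0.34, with 1 wild-type array not well above background, the antagonist Grem1 fell from 3.79 and 3.77 to 1.03 and 0.90, and the target Id4 from 0.17 and -0.06 to -2.91 and -3.19. Of 14 hedgehog genes 2 rose, among them Gli1 (0.80 ± 0.10), and 5 fell, among them Hhip (-1.22 ± 0.15).

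Kininogen and Speer genes made compact groups of falls. Kng1 and Kng2, neighbours on chromosome 16, encode the precursors of bradykinin. Kng1 (23081700 to 23081759) stood at 4.93 and 4.70 in wild-type and 0.07 and -0.23 in null cells, 29.7-fold lower, and Kng2 at 1.40 and 1.19 against -3.61 and -3.73. Speer genes are a mouse family known mainly from the testis, on chromosomes 5 and 10. Of 7 measured 6 fell. Speer4b fell from 3.25 and 3.28 to -1.26 and -1.44, Speer4f1 by 4.66 ± 0.28, Speer5-ps1 by 4.46 ± 0.27 and Speer4a by 3.52 ± 0.52. Both families consist of close copies, so the probes are not independent readings.

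Smooth muscle and actin genes rose more often than they fell, 19 against 3 of 37, with a median of 0.22. Myh11, the smooth muscle myosin, rose from -4.01 and -3.83 to -1.76 and -1.55, and the adhesion protein Zyx fell by 0.96 ± 0.08. Of 45 chromatin genes 21 rose and 7 fell. Dnmt3a, a DNA methyltransferase, rose from 0.93 and 0.98 to 1.70 and 1.78 and Hmga2, a chromatin protein of embryonic and tumor cells, fell from 1.19 and 1.16 to -0.07 and -0.15. Of 31 imprinted genes 10 rose and 8 fell. Mest, expressed from the paternal allele, rose from 0.52 and 0.92 to 4.36 and 4.49, the same at all 3 probes (3.65 to 3.73), while Dio3, which inactivates thyroid hormone, fell from 2.78 and 2.41 to -0.02 and -0.14.

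Position and lineage factors changed both ways. The share called was 44.1% of Hox genes, 47.5% of positional transcription factors and 34.5% of cadherins, near the 39.5% of all autosomal genes. It was 69.6% of retinoic acid genes, 69.2% of the tendon list and 52.4% of the keratin and junction list. Of 34 Hox genes 10 rose and 5 fell, and Hoxc5 rose by 0.79 ± 0.08 while Hoxc13 fell by 2.00 ± 0.24. Of 61 positional transcription factors 14 rose, led by Gata6 (0.97 ± 0.06), and 15 fell, of which Osr1 fell most among those measured in both groups (-1.29 ± 0.09). Of 23 retinoic acid genes 6 rose and 10 fell. Aldh1a3, which makes retinoic acid, rose from -3.25 and -3.33 to -0.97 and -1.17, and Rarres2 (chemerin) fell from 1.39 and 1.32 to -1.28 and -1.34. In the tendon list, where 7 of 13 rose and 2 fell, Tnn rose by 1.86 ± 0.23 and the tendon factor Mkx fell by 1.23 ± 0.07. The keratin and junction list had 8 of 21 rising and 3 falling, and Esrp2, an epithelial splicing factor, fell by 2.12 ± 0.16. Of 29 cadherins and partners 6 rose and 4 fell. Pkp1 was at 1.86 ± 0.47 (adjusted p = 0.0218, and 0.0621 to 0.101 with any 1 array left out), and Fat1 fell by 0.59 ± 0.05.

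Ion channel genes were called about as often as all genes. Of 46 ion channels 11 rose and 10 fell, with Kcnk6 from -2.36 and -2.32 to -0.40 and -0.24, and the sodium channel subunit Scn3b at -2.60 ± 0.18 with 1 null array not well above background. Of 29 synaptic vesicle genes 1 rose, Rab3d (0.34 ± 0.05), and 8 fell. Of 11 EGF family genes 1 rose, the feedback inhibitor Errfi1 (0.29 ± 0.05), and 3 fell, of which Nrg1 was lowest (-0.70 ± 0.07). Of 116 olfactory receptor genes 4 rose and 4 fell, 6.90% in all.

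Markers of other cells moved in different ways. Of 17 macrophage and myeloid genes 2 rose and 8 fell, and their summed signal was 29.6 and 29.9 times the 75th percentile in wild-type and 23.9 and 24.8 in null cells. The risers numbered 1 without null array 1. Group means of the pan-leukocyte Ptprc (CD45) were -5.43 and -5.06, with 1 wild-type array not well above background, and those of Csf1r 1.30 and 0.96. Itgam (CD11b), the largest term of the summed signal on every marrow array, stood at 4.54 and 4.23 and did not pass the test (-0.31 ± 0.12). The Fc receptor chain Fcer1g rose from -1.69 and -1.54 to 0.11 and 0.08, lysozyme (Lyz2) was at least 2.45-fold lower, and the invariant chain Cd74 was at -1.14 ± 0.26 (adjusted p = 0.0134, and 0.0513 to 0.0663 with any 1 array left out). The part of such cells in the falls of complement and innate immune genes was not tested. The 9 endothelial genes summed to 20 and 21.95 against 22.75 and 21.3, with the defining Cdh5 and Tek too dim to test. Plvap rose by 1.68 ± 0.16 and Vwf fell by 1.44 ± 0.19, with 1 null array not well above background. The 8 lymphoid and erythroid genes summed to 3.06 and 3.11 against 2.93 and 2.91, Alas2 was too dim to test, Hba-a2 rose by 1.06 ± 0.08 and the receptor Epor fell by 1.05 ± 0.06. Of 8 skeletal muscle genes 5 rose and 1 fell, with sums of 6.07 and 6.87 against 11.4 and 11.9, while Myod1, Myog and Mylpf were too dim to test. Acta1 rose from 0.19 and 0.01 to 1.74 on both arrays, Chrna1 was at least 11.7-fold higher, and Tnni1 was at -1.18 ± 0.33 (adjusted p = 0.0322, and 0.0913 to 0.157 without wild-type array 1, wild-type array 2 or null array 1). Of 12 Schwann and neural genes 5 rose and 2 fell, but Sox10 did not pass the test, and the sums were 30.3 and 33.5 against 80.8 and 79.4. S100b, a calcium-binding protein also made by cartilage cells and the largest term of these sums on the null arrays, rose from 3.69 and 4.11 to 5.95 and 5.91. Mbp fell by 1.65 ± 0.08, with probes from -2.08 to -0.68.

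The same contrast was made in fat cells, where 8956 autosomal genes changed (41.7%), with no sample shared between the tissues. The effect in marrow minus that in fat passed the test for 6842 genes (31.8%), 3338 of them higher (15.5%) and 3504 lower (16.3%) in marrow. Mean Xist was 4.43 in wild-type and 4.48 in null fat cells, against 2.13 and -4.37 in marrow. Mean Ddx3y was -0.57 and -1.52 in fat, against 1.65 and 1.95 in marrow. Rb1 and Trp53 fell less in marrow than in fat, as given above. The part of donors and of the remaining Rb1 and Trp53 signal in the tissue differences was not tested. Cholesterol, amino acid, proteasome and ribosome lists had the same sign of median in both tissues. The cholesterol median was 0.81 in marrow and 0.88 in fat, the amino acid median 0.76 and 0.71, but 12 of 25 cholesterol genes and 19 of 31 amino acid genes differed between the tissues, with 5 and 10 of these higher in marrow. The effects differed for 3 of 31 proteasome and 2 of 45 ribosomal genes. Dhcr7 rose by 1.21 in fat, with a difference of 0.12 ± 0.10 (adjusted p = 0.38).

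In the matrix, adhesion and lysosome lists most of the differing effects were higher in marrow. In the basement membrane list 20 of 26 effects differed, 17 of them higher in marrow, and the fat median was -0.28. Among integrins 14 of 17 differed, 12 higher in marrow, and Itga7 fell in fat (-1.58) where it rose in marrow. Of 39 lysosomal genes 26 differed, 25 of them higher in marrow, and the fat median was -0.44. Col4a1 and Col4a2 fell in fat by 0.56 and 0.71, with differences of 2.49 and 2.22. Among innate immune sensors 16 of 33 differed, 2 of them higher in marrow. Of 25 glycolysis genes 15 differed, 4 higher in marrow, and the fat median was -0.23. Against that median, Slc16a3 and Aldoc rose in fat by 0.49 and 0.62. Sfrp2 was at -3.11 in marrow and 5.00 in fat.

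**Figure D5:**
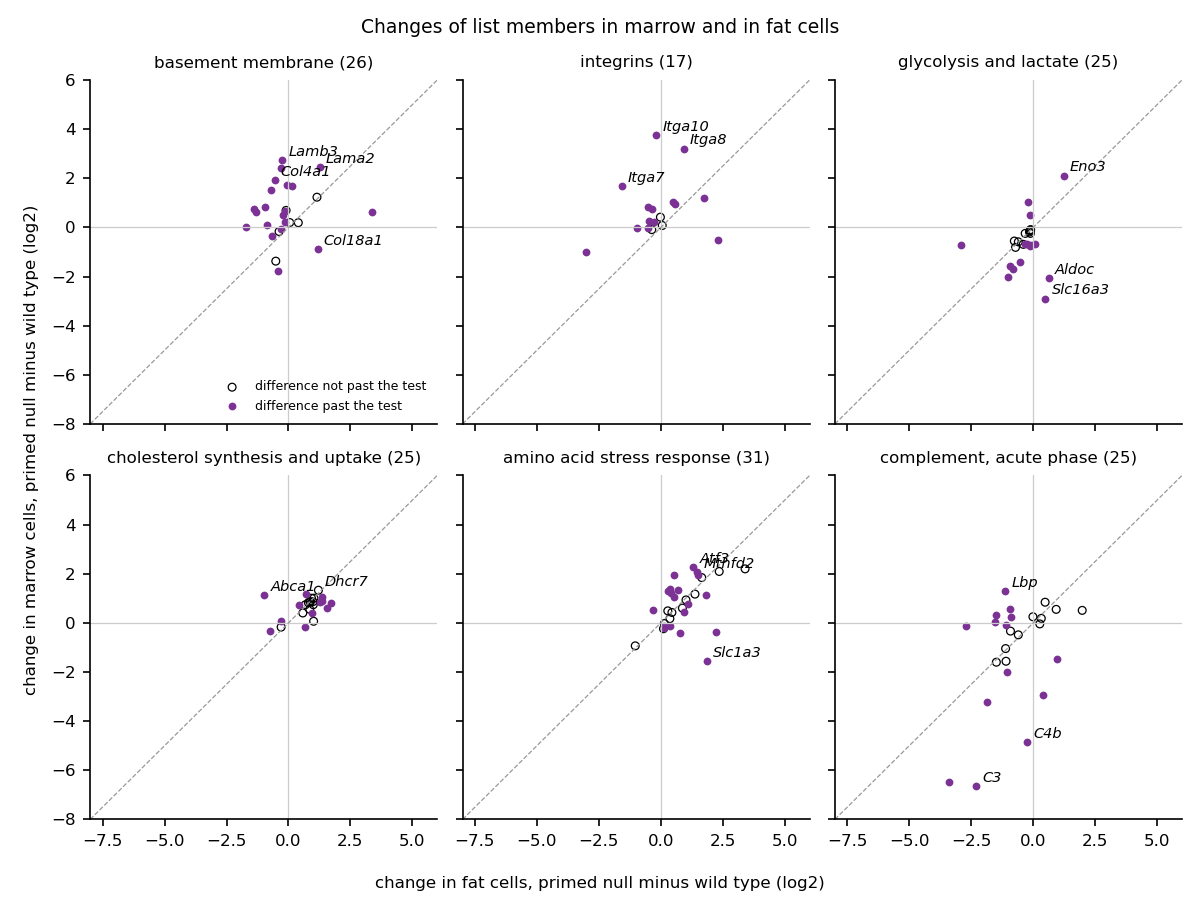
Change of each member of 6 gene lists in fat cells (horizontal axis) and in marrow cells (vertical axis), both primed null minus wild type on the log2 scale, with filled points where the difference between the tissues passed the test. Dashed lines mark equal changes. The difference passed the test for 12 of 25 cholesterol genes, 5 of them higher in marrow, and for 20 of 26 basement membrane genes, 17 of them higher in marrow.

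Changed genes were spread over all 19 autosomes, from 33.2% of genes called on chromosome 18 to 42.1% on chromosome 10. The share of called genes that rose ranged from 38.7% on chromosome 7 to 57.1% on chromosome 5. On chromosome 4, Cdkn2a and Cdkn2b, inhibitors of the kinases that phosphorylate Rb, fell from 3.17 and 3.08 to -2.26 and -1.82 and from 2.63 and 2.62 to -3.71 and -3.68. Between Mtap and Cdkn2a, LOC100505024 did not pass the test (-0.02 ± 0.19, adjusted p = 0.951), and an unnamed transcript beyond Mtap stood at -4.73 in wild-type cells and was not well above background on either null array. Mtap, a methionine salvage enzyme, was at -0.33 ± 0.10 (adjusted p = 0.0415, and 0.0931 to 0.194 without wild-type array 1, wild-type array 2 or null array 2). Both null arrays kept a signal well above background for both inhibitors. In the tumor line, whose title names the primed null marrow cells, they stood 8.89 and 8.91 higher than in the null cells. The Y-linked Ddx3y stood at -7.53 in that line against 1.95 in the null cells, and Xist at -1.49 against -4.37. Whether the line came from the cultures measured here was not tested.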

How the data were processed

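RNA of 10 cultures was hybridised to 10 Agilent arrays read in a single colour (Cy3). The scanner files deposited by the authors give each spot's intensity, with background already subtracted, and the headers name Feature Extraction 10.7.3.1 and mm9. The authors' deposited series matrix reads as log2 values with array medians of 5.04 to 5.06. It served as an alternative and correlated with the scanner values at 0.989 to 0.993. The submitters' processing notes name limma, and the authors' normalization is not stated in the labels read here.

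Spots marked as outliers were dropped, those of each probe were averaged as log2 intensity, and every array was centred on its 75th percentile. Of 55681 probes 37 were dropped, and RefSeq tables named 27243 by accession, 3578 by symbol, 553 by synonym and 41 by case, while 24229 kept the file's name. Each gene was read from its brightest probe by mean over all arrays, and was tested if some group had that probe well above background on both its arrays. All 5 groups were fitted in a single model with limma 3.58.1 (R 4.3.3, Python 3.11.15, pandas 2.3.3, numpy 2.4.6), with 5 residual and 1.35 prior degrees of freedom. Two-sided p-values were adjusted over 22594 genes (Benjamini-Hochberg). They reflect only the spread of duplicate cultures, and 2 arrays per group limit the precision. Tested on simulated data for the marrow comparison (22594 genes), the fit recovered 70% of 100 genes changed by 1 and 84% of 100 changed by 2 (log2), with 11 false calls. Only these genes were changed in the simulation, whereas 39.5% of autosomal genes were called in the data. Its recovery and false calls therefore do not carry over to the data. For a bound, the bright group's mean was set against the dim group's, taking on each array whichever was higher, the dim probe's signal or the dimmest signal called well above background.

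Named by rule were the 15 largest rises and falls measured in both groups with no overlap, up to 5 bounds per direction, the largest rise and fall of each list, the targeted genes, and Cdkn2a and Cdkn2b with their neighbours. Genes of the lists set aside, and those named only by an accession, clone or gene model, were left out of the overall ranking. Some genes are not reported here. The members and lists were chosen with earlier results of these data known. Replicate numbers did not pair the cultures (r = 0.087 between same-numbered deviations). The alternatives changed the arrays fitted, background, centring, normalization, dim-probe filter, probe averaging, replicate block and each single array.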

Additional observations from a re-analysis of the deposited data

Results flagged for a closer look

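The primed null cells from fat were set against wild-type fat cells in the same fit, and the difference between the marrow and fat effects was tested gene by gene with limma. Of the 206 genes named, 165 differed between the tissues, 80 of these had effects of opposite sign, and in 54 both effects passed the threshold in opposite directions. Over all autosomal genes 6842 of 21501 differed (31.8%). Many of the 206 were named for a large marrow change, which is itself part of this difference. Their higher share is therefore not a result about these genes. The sizes of these 54 differences ran from 0.54 to 9.23 on the log2 scale. The tissues also differed in the falls of Rb1 and Trp53 and in Xist, as given above, and the part of this was not tested. All values that follow are the marrow effect minus the fat effect (log2, 2 arrays per group), which is above 0 where the gene rose in null marrow cells and fell in null fat cells.

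Among the largest changes the difference was 9.23 for Lum, 7.22 for Rspo1, 6.46 for Fhod3 and 4.44 for Dcn. It was -6.70 for Kng1, -6.35 for Kng2, -5.54 for Speer4b, -5.52 for Ptprz1 and -4.80 for Fabp4. Lum rose by 7.92 in marrow and changed by -1.32 in fat, and Kng1 changed by -4.89 and 1.81.

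Matrix and adhesion genes that rose in marrow and fell in fat were Col8a1 (3.35), Col4a1 (2.49), Col4a2 (2.22), Smoc2 (2.72), Itga7 (3.27), Mmp13 (3.35) and Ctsk (1.29). Col18a1, which encodes the collagen that carries endostatin, went the other way at -2.07. The surface markers were split, with Nt5e at 4.27 against Ly6a at -1.79 and Pdgfra at -1.48.

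In lipid metabolism and transport the difference was 2.12 for Abca1, the cholesterol exporter, -0.86 for Insig1, and -0.54 for Pparg, the regulator of fat cell formation. The glutamate transporter Slc1a3 stood at -3.40, the lactate exporter Slc16a3 at -3.39, the aldolase Aldoc at -2.67 and the chaperone Pdia6 at -0.61.

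Immune genes that fell in marrow and rose in fat were Gbp2b (-2.37), Gbp2 (-1.21), Tlr2 (-1.51), Nfkbia (-0.96), Il1r1 (-1.95) and Cd74 (-2.98). Lbp was at 2.42 and Tlr4 at 0.70.

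Among signalling genes the difference was -8.11 for the Wnt antagonist family member Sfrp2 and 2.34 for Nkd2. The Notch ligand Dll1 was at 2.78 and the related Dlk1 at -3.48. Fgf18 was at 4.65 and Fgf7 at -2.55, Igfbp2 was at 2.70, and Nrg1 was at -1.39.

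Of the regulators, Klf4 was at 1.35, Dnmt3a at 1.19, Hoxc5 at 1.95, Hmga2 at -1.51 and Mkx at -1.65. Muscle genes stood at 3.62 for Myh11 and 2.04 for Acta1. Vwf, an endothelial marker, was at -2.14, Hba-a2, an alpha globin, at 1.96, S100b at 2.73, and Epor, the erythropoietin receptor, at -1.42.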

How the results depend on the processing

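Of 2029 values of single genes under settings other than leaving out an array, 2004 kept their direction and side of the threshold, 20 no longer passed it and 5 changed sign. Of 824 values with 1 array left out, 783 kept both, 38 no longer passed and 3 changed sign. Gbp3, which did not change, was at -0.0005153 with quantile normalization, -0.04 without wild-type array 2 and -0.19 without null array 2 (leaving out each array in turn, -0.19 to 0.19). LOC100505024, which did not change either, was at 0.01235 with normexp, 0.001293 with the array median as centre, 0.01469 with quantile normalization and 0.03895 with the series matrix, and at -0.1076 to 0.06721 leaving out each array in turn. The other genes affected were Cd74, Col10a1, Il1rn, Insig1, Mtap, Oasl1, Pdia6, Pkp1, Pparg, Rps21, Slc1a3, Slc7a11, Tap1 and Tnni1. Numbers of changed autosomal genes ran from 6851 to 8756 under other settings and from 6140 to 6506 with 1 array left out, against 8502, and the share of called genes that rose from 46.5% to 52.7%. Genes changed at least 2-fold numbered 841 with a normexp background and 1227 to 1817 otherwise. The replicate block gave 8105 changed genes, of which 1751 were at least 2-fold, and 6372 for the difference between tissues, against 8502, 1771 and 6842.

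Counts of list members also moved, and the cause was not tested. Fitted on the 4 marrow arrays alone, the fibrillar collagens had 1 faller, cholesterol 1 faller, the respiratory chain 2 risers and 5 fallers, the proteasome 10 risers, the ribosome 6 fallers, chaperones of the endoplasmic reticulum 8 risers and 0 fallers, interferon-induced genes 4 risers, MHC class I 3 fallers, innate sensors 2 risers and myeloid markers 1 riser. With normexp the respiratory chain had 5 risers, the proteasome 1 faller, complement 6 risers and myeloid markers 1 riser. With the array median as centre, cholesterol had 1 faller, the respiratory chain 7 fallers and the chaperones 2. With no filter, cholesterol had 1 faller, the respiratory chain 2 risers and 6 fallers, the proteasome 10 risers, the chaperones 1 faller and myeloid markers 1 riser. With quantile normalization or the series matrix the proteasome had 1 faller, and with the matrix myeloid markers had 1 riser. Restricted to genes well above background on all 4 arrays, the proteasome had 1 faller, Wnt genes 13 risers and myeloid markers 1 riser and 5 fallers. With probes of a gene averaged, the respiratory chain had 7 fallers, and with the replicate block cholesterol and the chaperones had 1 faller each.

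With each array left out in turn, the lowest and highest counts were 1 and 2 fallers for fibrillar collagens, 1 and 1 for cholesterol, 1 and 2 for amino acid genes, 4 and 14 for the ribosome, 0 and 3 for the chaperones, 2 and 4 for MHC class I, 5 and 8 for prostaglandin genes and 8 and 11 for Wnt genes. They were 1 and 5 risers and 4 and 7 fallers for the respiratory chain, and 6 and 13 risers and 0 and 1 fallers for the proteasome. Risers ran from 8 to 21 for interferon-induced genes, 3 to 4 for Notch, 1 to 3 for myeloid markers and 3 to 4 for interleukin receptors. Signal over background limits the dim genes, since 53.3% to 58.4% of spots on a marrow array were well above it.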
